A study of Mus musculus with 59 samples.

Results

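Lefty2 and 4 other genes of the Nodal signalling pathway were followed in mouse embryonic stem cells (ESCs) during a block of transcription. The 5 genes were the ligand Nodal, its coreceptor Tdgf1 (also called Cripto) and the secreted inhibitors Lefty1, Lefty2 and Cer1, chosen by name out of 23974 genes in the deposited table. Lefty2 was included because its values were higher in knockout (KO) cells at every time, so that its differences between genotypes are given below as a description, without a test. The question was whether the ligand, the coreceptor and the other inhibitors moved with it.

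Nodal is a secreted ligand of the transforming growth factor beta family. It binds activin receptors together with Tdgf1, and the receptors phosphorylate Smad2 and Smad3, which enter the nucleus with Smad4 and act on target genes with Foxh1. Lefty1, Lefty2 and Cer1 act outside the cell against the ligand or its coreceptor, and both Lefty genes are known targets of the pathway they inhibit. In mouse ESCs the pathway is active through ligands made by the cells themselves, and in the embryo it patterns the epiblast and sets left-right asymmetry.

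The cells were ESCs of the BDF1 strain, derived from blastocysts, either KO for Zcchc8 or wild type (control). Zcchc8 is a subunit of the nuclear exosome targeting complex, a nuclear assembly that feeds RNA to the degrading exosome. All groups were grown in serum medium with LIF, CHIR99021 and PD0325901 and were sampled after 0, 4 or 8 h in 5 µg/ml Actinomycin D, which stops transcription, with ERCC spike-in RNA added. Total RNA was sequenced after removal of ribosomal RNA, with 2 libraries in each of the 6 groups (12 of the 59 samples in the series). The sources used here do not give how the KO line was made or from how many clones. Nor do the labels state that replicates were separate cultures, and every p-value therefore reflects variation between libraries that may be technical.

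The libraries held 465324 to 1364523 counted reads, and 1 read was worth 0.452 to 3.23 units of the authors' normalised read count. The control 0 h libraries stood apart from each other: 1 read was worth 1.32 units in replicate 1 and 3.23 units in replicate 2. The table held no spike-in rows, so all changes with time are on the scale of the authors' normalisation. On that scale the median of the 6952 tested genes was itself higher in KO than in control, by 0.44 at 0 h, 0.29 at 4 h and 0.63 at 8 h in log2(value + 1). TMM scaling, which sets the bulk of genes level between libraries, brought these medians to between -0.0045 and 0.013. Results of the members and the called genes are given on both scales where their call or direction differs, for fibroblast markers as counts. Zcchc8, the targeted gene, had 25.3 and 5.29 units in KO cells at 0 h, against 59.3 and 77.5 units in control cells (log2 difference -2.42 ± 0.68 SE, limma adjusted p = 0.0332). It was not called at the later times, with 17.4 ± 5.47 units in KO and 28.7 ± 5.68 units in control at 4 h (-0.71, limma adjusted p = 0.845) and 6.67 ± 4.09 units in KO and 9.43 ± 2.64 units in control at 8 h (-0.53, adjusted p = 0.638). Of 16 markers of naive pluripotency, Sox2 averaged 860 ± 10.8 units in KO and 872 ± 370 units in control at 0 h, Klf4 785 ± 37.9 units in KO and 880 ± 482 units in control, and Pou5f1 280.5 ± 32.2 units in KO and 240 ± 76.5 units in control (SD, n = 2 each), while Esrrb and Tcl1 had no reads in any library. For a gene listed with several transcripts, a lack of reads is not a measure of RNA, as given below with the pathway genes.

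Lefty1 and Lefty2 are near copies of each other, which bears on how their reads can be told apart. In the GENCODE M21 annotation of GRCm38 both lie on the plus strand of chromosome 1, and no annotated gene overlaps any of the 5 members. Their coding sequences aligned over 1104 bases without a gap, with 1014 identical bases (91.8%) and 90 that differed. The most divergent stretch of 120 coding bases, bases 46 to 165 counted from the first base of the start codon, held 34 differences, shown here in capitals because reads from such a stretch separate the genes.
Lefty1: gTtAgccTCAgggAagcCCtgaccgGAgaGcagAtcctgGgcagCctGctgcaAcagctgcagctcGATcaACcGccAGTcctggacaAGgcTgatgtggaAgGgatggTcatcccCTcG
Lefty2: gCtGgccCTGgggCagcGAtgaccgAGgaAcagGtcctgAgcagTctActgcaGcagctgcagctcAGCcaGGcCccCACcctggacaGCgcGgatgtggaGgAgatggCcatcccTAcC
Of all windows of 50 bases in the 1620-base Lefty1 transcript, 281 of 1571 (17.9%) occurred in Lefty2, and the same 281 were 11.6% of the 2424 windows of the 2473-base Lefty2 transcript. With 100 bases the shared windows numbered 73, which is 4.80% of the Lefty1 windows and 3.07% of the Lefty2 windows. Most of each transcript was therefore unique at these lengths, and the sources used here do not give how the authors' counting treated reads that match both genes.

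The 3′ untranslated regions differed in length and in AU-rich elements, which are known in mammals as sites where proteins that speed or slow messenger RNA decay can bind. Each region was searched on the transcript's own strand for ATTTA and for the longer TATTTAT, which contains ATTTA. Lefty2 (1290 bases), Nodal (702 bases) and Tdgf1 (1101 bases) each held 1 ATTTA, and neither Lefty1 (425 bases) nor Cer1 (855 bases) held one. The 3 sites are shown as DNA, with ATTTA in capitals. They are shown to compare the bases around the motif in the members that hold it.
Lefty2: tttgcccatgtcATTTAttgtcagagctt
Nodal: atatatatatgtATTTAtttttgatgcca
Tdgf1: gaggtactgggaATTTAaaagctaagttc
The Nodal site was the only one of the 3 to match TATTTAT. Among transcripts with 3′ untranslated regions of similar length, ATTTA was present in 81.4% for Lefty2, 62.2% for Nodal, 78.1% for Tdgf1, 47.0% for Lefty1 and 68.2% for Cer1, and TATTTAT in 19.7% for Nodal, so these matches are common. They are a description of the letters only.

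Per kilobase of transcript, Lefty2 and Tdgf1 were the most abundant members. At 0 h Lefty2 had 212 ± 23.2 units per kilobase in KO and 77.3 ± 51.4 in control, and Tdgf1 had 147 ± 52.6 in KO and 172 ± 40.6 in control (SD, n = 2 each). Nodal had 49.0 ± 4.50 units per kilobase in KO and 31.3 ± 18.0 in control at 0 h, and Lefty1 40.0 ± 6.56 in KO and 42.8 ± 15.6 in control. Lefty2 was therefore the highest of the members in KO at 0 h and Tdgf1 in control, where Lefty2 was second by mean and overlapped Lefty1 and Nodal. Cer1 was at the floor, with 2 reads in all 12 libraries, 1 of them in KO and 1 in control, both at 4 h. A count of 0 allows up to 3 reads, or 1.36 to 9.69 units depending on the library, counting error only, so a difference in Cer1 was not detectable at this depth.

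**Figure D1:**
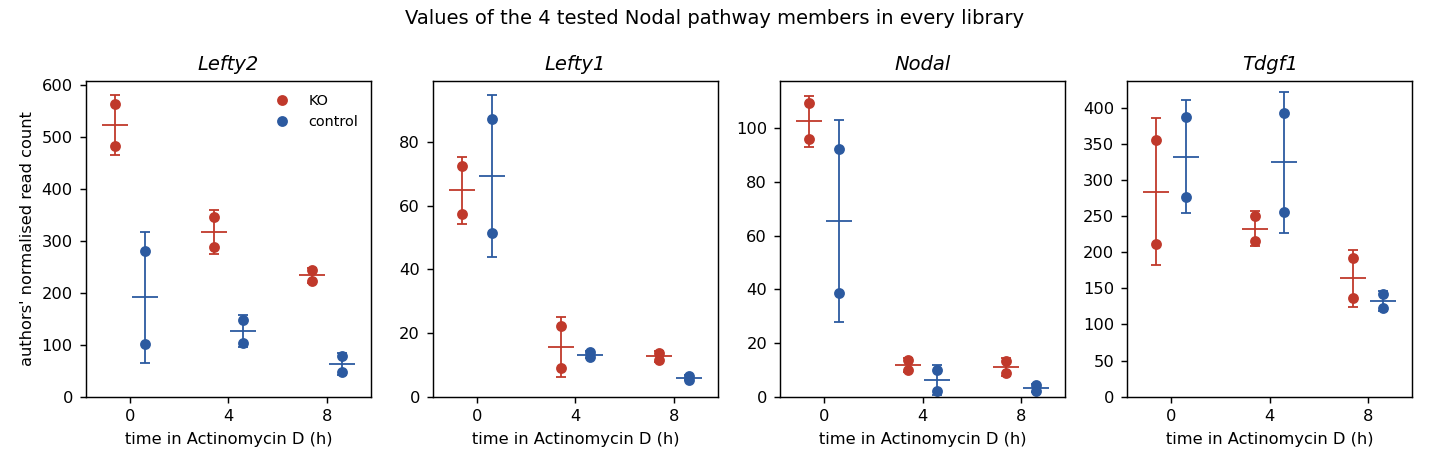
Authors' normalised read count (vertical axis, linear, 1 panel per gene with its own scale) against hours in Actinomycin D, with KO in red to the left of control in blue. Points are single libraries, and bars are the mean and SD of 2 libraries. Lefty2 points of KO lie above those of control at each time, the Tdgf1 groups overlap at 0 h and 8 h, and Nodal and Lefty1 are low at 4 h and 8 h in both genotypes.

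Nodal, the ligand, had 96.0 and 109 units in KO cells at 0 h, against 92.2 and 38.8 units in control cells. At 4 h it had 10.1 and 13.6 units in KO, against 2.18 and 10.04 units in control, and at 8 h 13.4 and 8.82 units in KO, against 4.32 and 2.26 units in control. Both KO libraries were above both control libraries at each time, by a small margin at 0 h and 4 h. KO above control without overlap was met by 37.3%, 37.0% and 55.3% of the tested genes at 0, 4 and 8 h, and by 13.9% at all 3 times. After TMM scaling these shares were 23.0%, 24.5%, 20.8% and 4.6%. The low values rest on few reads, 7 to 21 per KO library and 3 to 13 per control library at 4 and 8 h. The 38.8 units in control at 0 h stand for 12 reads. The KO minus control difference was 0.77 ± 0.69 at 0 h (limma adjusted p = 0.636), 1.10 ± 0.69 at 4 h (adjusted p = 0.663) and 1.51 ± 0.69 at 8 h (adjusted p = 0.182) in log2(value + 1), so Nodal was not called at any time. With TMM scaling the differences were 0.33, 0.86 and 1.00 at 0, 4 and 8 h, the 0 h libraries overlapped, and with TMM or DESeq2's own factors on the recovered reads the 0 h estimate turned to -0.029 or -0.018. Over all tested genes on the deposited scale, calls higher in KO made up 4.23% (0 h), 0.748% (4 h) and 4.88% (8 h). Calls lower in KO made up 0.0719%, 0% and 0.0144%.

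Tdgf1, the membrane-bound coreceptor, had 355 and 212 units in KO at 0 h, against 277 and 388 units in control. The values at 4 h were 215 and 250 units in KO, against 255 and 393 units in control, and at 8 h 192 and 136 units in KO, against 123 and 142 units in control. The groups overlapped at 0 h and 8 h, and at 4 h both KO libraries were below both control libraries, as were those of 8.7% of tested genes. The KO minus control difference in log2(value + 1) was -0.25 ± 0.39 at 0 h, -0.45 ± 0.39 at 4 h and 0.29 ± 0.39 at 8 h, with limma adjusted p of 0.802, 0.813 and 0.66. After TMM scaling it was -0.69, -0.75 and -0.38 at 0, 4 and 8 h, so that the 8 h direction flipped, and KO lay below control without overlap at all 3 times, with limma adjusted p of 0.214, 0.231 and 0.558. Non-overlap with KO below was met after TMM scaling by 21.8%, 24.7% and 19.8% of tested genes at 0, 4 and 8 h. Relative to the median gene Tdgf1 therefore stood on the low side in KO and Lefty2 on the high side, with the Tdgf1 difference short of a call at each time on both scales.

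Lefty1, the near copy of Lefty2, had 57.3 and 72.3 units in KO at 0 h, against 51.4 and 87.2 units in control. At 4 h it had 8.97 and 22.3 units in KO, against 12.4 and 13.9 units in control, and at 8 h 11.5 and 13.9 units in KO, against 6.49 and 5.42 units in control. The groups overlapped at 0 h and 4 h, and at 8 h KO lay above control, as for 55.3% of tested genes. The KO minus control difference in log2(value + 1) was -0.06 ± 0.61 at 0 h, 0.11 ± 0.61 at 4 h, a direction that flipped to -0.17 with TMM scaling, and 0.97 ± 0.61 at 8 h. The limma adjusted p was 0.979, 0.984 and 0.325. After TMM scaling the 0 h difference was -0.48, with both KO libraries below both control libraries (as for the 21.8% of genes given above), and the 8 h difference 0.39, neither called by limma (adjusted p = 0.718 and 0.789). At 8 h the control values stand for 12 reads in each library and the KO values for 18 and 11 reads.

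Lefty2 was higher in KO at each time. It had 564 and 483 units in KO at 0 h, against 101 and 281 units in control. The 4 h values were 288 and 347 units in KO, against 104 and 148 units in control. By 8 h it had 244 and 223 units in KO, against 48.6 and 78.2 units in control. All 6 KO values are above the control values of the same time, as for 13.9% of tested genes, and remain so after TMM scaling, as for 4.6%. The KO values at 8 h, however, lie within the range of the control values at 0 h. Ordered by mean, the groups ran from KO at 0 h (524 ± 57.3 units) through KO at 4 h (317 ± 41.9 units), KO at 8 h (234 ± 15.0 units), control at 0 h (191 ± 127 units) and control at 4 h (126 ± 30.7 units) to control at 8 h (63.4 ± 20.9 units, SD, n = 2 each). Neighbours in that order did not overlap except KO at 8 h with control at 0 h and control at 0 h with control at 4 h.

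The KO minus control difference of Lefty2 in log2(value + 1) was 1.62 ± 0.41 (0 h), 1.34 ± 0.41 (4 h) and 1.90 ± 0.41 (8 h), and 1.19 ± 0.24, 1.04 ± 0.24 and 1.25 ± 0.24 with TMM scaling (SE). The 0 h value was 0.89 without replicate 1 of control at 0 h and 2.35 without replicate 2, so that the size of that difference depends on which control library is used. A smaller difference on the deposited scale was found for 90.9% of tested genes at 0 h, 92.4% at 4 h and 94.6% at 8 h. Lefty1, by its own tests given above, was not called at any of the times. A missed threshold does not show that Lefty1 was alike in both genotypes.

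**Figure D2:**
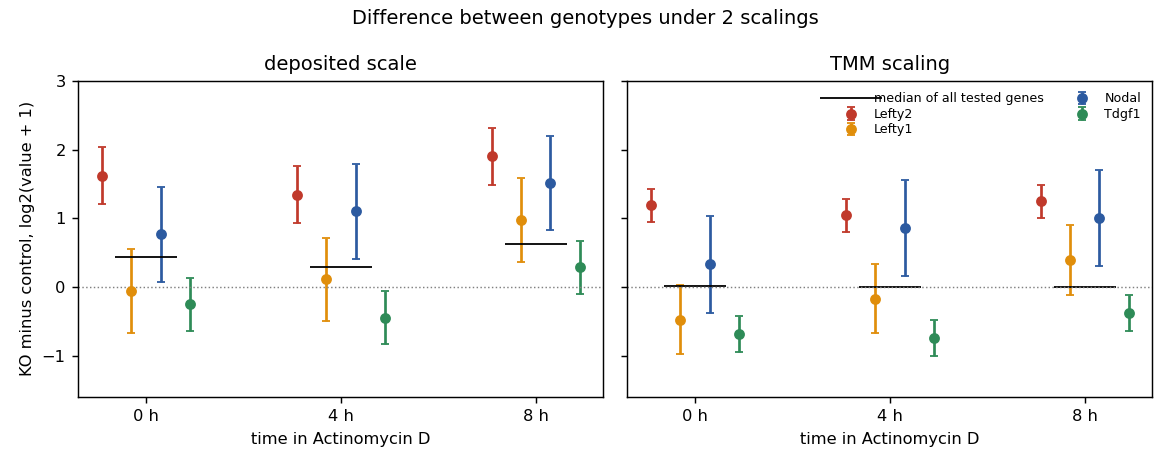
KO minus control difference in log2(value + 1) (vertical axis) at 0, 4 and 8 h for the 4 tested members, on the deposited scale (left) and after TMM scaling (right). Points are estimates, bars are SE from the fit over all genes, and the black dashes are the median of all tested genes. Lefty2 lies between 1.04 and 1.90 in both panels, and Tdgf1 lies below the median gene at each time.

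Ratios taken within a library do not depend on either scaling. The ratio of Lefty2 to Tdgf1 was 1.59 and 2.28 in KO at 0 h, against 0.367 and 0.725 in control. Over all times it ran between 1.27 and 2.28 in KO and between 0.367 and 0.725 in control, with no overlap, which describes the contrast that chose Lefty2. The ratio of Lefty2 to Lefty1 was 9.85 and 6.68 in KO at 0 h, against 1.97 and 3.22 in control, and did not overlap between genotypes at 4 h or 8 h either. This separation, too, describes the contrast that chose Lefty2. The ratio of Lefty2 to Nodal overlapped between genotypes at each time, at 5.88 and 4.42 in KO at 0 h, against 1.10 and 7.25 in control. It was 28.5 and 25.6 in KO at 4 h, against 47.7 and 14.7 in control, and 18.2 and 25.3 in KO at 8 h, against 11.2 and 34.6 in control. At the later times the ratio of Lefty2 to Lefty1 was 15.6 to 32.1 in KO and 7.50 to 14.4 in control, above the 0 h values of the same genotype in every library.

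**Figure D3:**
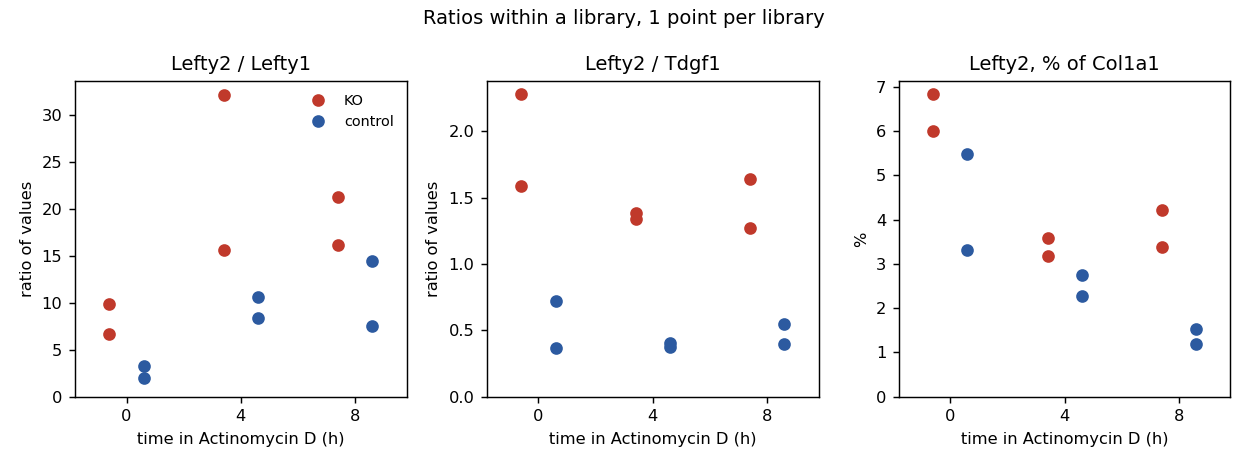
Ratios of normalised read counts within each library (vertical axes, linear from 0) against hours in Actinomycin D, with KO in red to the left of control in blue and 1 point per library. The panels show Lefty2 over Lefty1, Lefty2 over Tdgf1 and Lefty2 as a percentage of Col1a1. KO points lie above control points of the same time in all 3 panels, which describes the contrast that chose Lefty2.

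On the deposited scale the members separated by 4 h into those at 24.1% or less of their 0 h mean and those at 60.6% or more, in both genotypes. Nodal at 4 h was at 11.5% of its 0 h mean in KO and 9.33% in control, and at 8 h at 10.8% in KO and 5.03% in control. Lefty1 at 4 h was at 24.1% in KO and 19.0% in control, and at 8 h at 19.5% in KO and 8.59% in control. Lefty2 kept more, with 60.6% in KO and 65.8% in control at 4 h and 44.6% in KO and 33.2% in control at 8 h. Tdgf1 kept the most, with 82.0% in KO and 97.6% in control at 4 h and 57.8% in KO and 40.0% in control at 8 h. The median tested gene changed by -0.68 in KO and -0.49 in control from 0 to 4 h and by -1.15 in KO and -1.33 in control from 0 to 8 h in log2(value + 1).

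**Figure D4:**
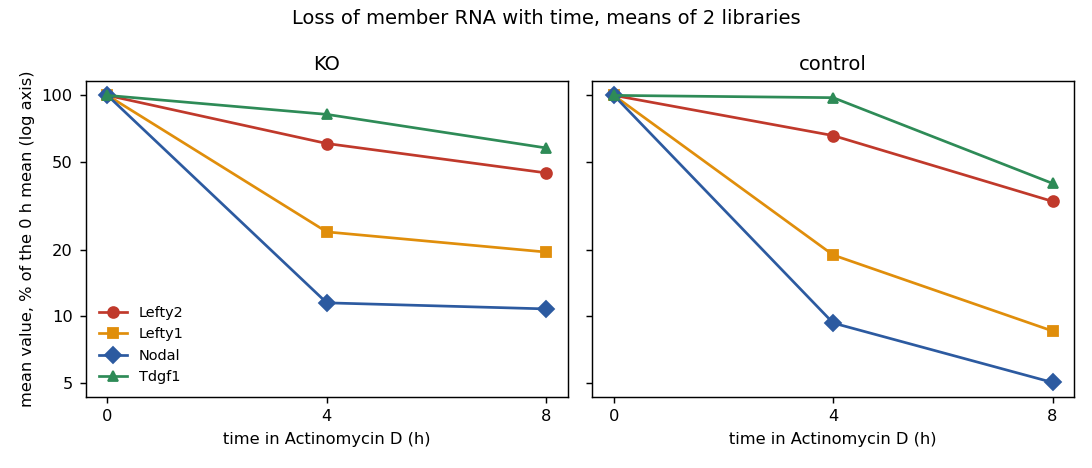
Mean normalised read count as a percentage of the 0 h mean (vertical axis, log scale) against hours in Actinomycin D, for KO (left) and control (right), with 1 line per member and means of 2 libraries. Nodal and Lefty1 drop to 24.1% or less by 4 h in both panels, and Lefty2 and Tdgf1 are then at 60.6% or more.

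Nodal fell in both genotypes. Its change from 0 to 4 h was -3.03 ± 0.69 in KO (limma adjusted p = 0.00214) and -3.36 ± 0.69 in control (adjusted p = 0.000714), and from 0 to 8 h -3.12 in KO (adjusted p = 0.000673) and -3.87 in control (adjusted p = 2.18e-05), in log2(value + 1). From 0 to 4 h 14.4% of tested genes were called lower in KO and 11.8% in control, and from 0 to 8 h 40.5% in KO and 53.5% in control. With TMM scaling, where 4.63% of genes in KO and 6.78% in control were called lower from 0 to 4 h, Nodal still fell by 2.32 in KO (limma adjusted p = 0.0489) and its change in control was -2.85 (adjusted p = 0.0149). From 0 to 8 h on that scale, where 5.7% of genes in KO and 11.2% in control were called lower, it changed by -1.98 in KO (limma adjusted p = 0.0761) and by -2.65 in control (adjusted p = 0.0117). The 0 to 4 h call in KO was lost without replicate 2 of KO at 0 h (-2.93, limma adjusted p = 0.0506), and that in control without replicate 1 of control at 4 h (-2.46, adjusted p = 0.0754).

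Lefty1 fell in both genotypes on the deposited scale. Its change from 0 to 4 h was -2.10 ± 0.61 in KO (limma adjusted p = 0.0166) and -2.27 ± 0.61 in control (adjusted p = 0.00947), and from 0 to 8 h -2.26 in KO (adjusted p = 0.00397) and -3.29 in control (adjusted p = 3.66e-05). With TMM scaling the changes in control were -1.71 to 4 h (limma adjusted p = 0.0354) and -1.995 to 8 h (adjusted p = 0.00925), and the KO changes of -1.40 and -1.13 were not called (adjusted p = 0.0959 and 0.158). The 0 to 4 h call in KO was lost without KO 0 h replicate 1 (-2.27, limma adjusted p = 0.0854), KO 0 h replicate 2 (-1.94, adjusted p = 0.16) or KO 4 h replicate 1 (-1.49, adjusted p = 0.328). The same call in control was lost without control 0 h replicate 2 (-1.89, limma adjusted p = 0.121), control 4 h replicate 1 (-2.19, adjusted p = 0.103) or control 4 h replicate 2 (-2.35, adjusted p = 0.0505). The 0 to 8 h call in KO was lost without KO 0 h replicate 2 (-2.10, limma adjusted p = 0.0522), and that in control held without each library in turn.

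Lefty2 changed with time about as the median gene did. Its change from 0 to 4 h was -0.72 ± 0.41 in KO (limma adjusted p = 0.245) and -0.44 ± 0.41 in control (adjusted p = 0.555), the control value turning to 0.13 with TMM scaling. From 0 to 8 h it fell by 1.16 in KO (limma adjusted p = 0.0247) and fell by 1.44 in control (adjusted p = 0.00414) on the deposited scale, but with TMM scaling, which removes the fall of the median gene, the changes were 0.013 in KO and -0.043 in control. The 0 to 8 h call in KO was lost without any of the 4 KO libraries of those times, at -1.05 and -1.27 without KO 0 h replicates 1 and 2 and -1.22 and -1.09 without KO 8 h replicates 1 and 2 (limma adjusted p from 0.0609 to 0.143). In control it was lost without control 0 h replicate 2 (-0.71, limma adjusted p = 0.153) or control 8 h replicate 1 (-1.10, adjusted p = 0.107). The 0 to 4 h change in control was -1.17 and called without control 0 h replicate 1 (limma adjusted p = 0.0174) and 0.29 without replicate 2.

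Tdgf1 changed by -0.24 ± 0.39 in KO (limma adjusted p = 0.735) and -0.05 ± 0.39 in control (adjusted p = 0.961) from 0 to 4 h, and both flipped with TMM scaling, to 0.46 in KO and 0.53 in control. From 0 to 8 h it changed by -0.76 in KO (limma adjusted p = 0.107) and fell by 1.30 in control (adjusted p = 0.00567), values that with TMM scaling flipped to 0.41 in KO and 0.10 in control. The control call was lost without control 8 h replicate 1 (-1.20, limma adjusted p = 0.068), and the KO change was called without either control 0 h library, which leaves its estimate at -0.76 (adjusted p = 0.041 without replicate 1 and 0.0403 without replicate 2).

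Ratios within a library, chosen after the values were seen and given without a test, describe the same order. The ratio of Nodal to Tdgf1 was 0.27 to 0.517 in KO and 0.1 to 0.333 in control at 0 h, and 0.0469 to 0.0698 in KO and 0.00855 to 0.0351 in control at the later times. The ratio of Lefty1 to Tdgf1 was 0.161 to 0.342 in KO and 0.186 to 0.225 in control at 0 h, and 0.0417 to 0.102 in KO and 0.0354 to 0.0526 in control at the later times. Within each genotype the 0 h values of both ratios lay above those of 4 and 8 h.

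Whether loss with time differed between genotypes was tested as the KO minus control difference of the change. From 0 to 8 h it was 0.75 ± 0.97 for Nodal (limma adjusted p = 0.951), 1.03 ± 0.86 for Lefty1 (adjusted p = 0.919) and 0.54 ± 0.55 for Tdgf1 (adjusted p = 0.936). From 0 to 4 h it was 0.34 ± 0.97 for Nodal, 0.17 ± 0.86 for Lefty1 and -0.19 ± 0.55 for Tdgf1 (limma adjusted p = 1.00 for each). None of these was called, and 0.0144% of all tested genes were called higher and 0% lower for either interval. For Lefty2, without a test, the difference was -0.28 ± 0.58 from 0 to 4 h and 0.28 ± 0.58 from 0 to 8 h. These turned on the control 0 h libraries, at 0.45 and 1.01 without replicate 1 and -1.01 and -0.45 without replicate 2.

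The rest of the pathway was read from lists by role, 32 genes beside the 5 members, of which 14 had a mean value of at least 10 units and were tested. In KO against control 2 of the 14 were called higher at 0 h, none at 4 h and 1 at 8 h, and none was called lower at any time, beside 4.23%, 0.748% and 4.88% of all tested genes called higher. The median difference of the 14 was 0.62 at 0 h, 0.59 at 4 h and 0.55 at 8 h, beside 0.44, 0.29 and 0.63 over all tested genes. With TMM scaling none of the 14 was called at any time, when 1.35%, 0.69% and 1.44% of all tested genes were called higher and 0.388%, 0.245% and 0.273% lower at 0, 4 and 8 h. The 0 h count was also 0 with edgeR on the recovered reads and when any library other than KO 8 h replicates 1 and 2 and control 0 h replicate 2 was left out. The 8 h count was 0 without KO 8 h replicate 2 or any of the control libraries at 4 and 8 h, and 2 without KO 8 h replicate 1. The 4 h count was 1 without either control 0 h library.

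Among the ligands, Inhbb, a subunit of activin B, which uses the same receptors without needing the coreceptor, had 219 and 190 units in KO at 0 h, against 63.2 and 93.7 units in control (log2 difference 1.40 ± 0.41, limma adjusted p = 0.0396). Inhbb lost this call with TMM scaling (0.96 ± 0.26, limma adjusted p = 0.0709). At 4 h it averaged 159 ± 3.12 units in KO and 73.6 ± 25.9 units in control, and at 8 h 109 ± 9.90 units in KO and 61.7 ± 20.03 units in control, without a call. Inhba, the subunit of activin A, averaged 121 ± 55.8 units in KO and 67.4 ± 9.70 units in control at 0 h. Of the receptors, the type II receptor Acvr2a had 133 and 79.3 units in KO at 0 h, against 75.1 and 155 units in control, which overlap. At 8 h it had 31.2 and 60.5 units in KO, against 14.1 and 12.2 units in control (log2 difference 1.66 ± 0.48, limma adjusted p = 0.0336). Acvr2a lost this call with TMM scaling (1.04 ± 0.39, limma adjusted p = 0.213). Acvr2a overlaps Orc4 on the opposite strand in the annotation, and the sources used here do not give whether counting used strand. Acvr1b, the type I receptor of Nodal, averaged 30.0 ± 7.55 units in KO and 42.8 ± 30.8 units in control at 0 h.

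Among the effectors, Smad4 averaged 71.4 ± 6.21 units in KO and 70.7 ± 14.3 units in control at 0 h, and Smad3 81.8 ± 1.00 units in KO and 43.8 ± 16.3 units in control (limma, neither called). Of the inhibitors inside the cell, Pmepa1, which keeps Smad2 and Smad3 from the receptor, had 298 and 242 units in KO at 0 h, against 93.5 and 107 units in control (log2 difference 1.42 ± 0.41, limma adjusted p = 0.0353). Pmepa1 lost this call with TMM scaling (0.98 ± 0.33, limma adjusted p = 0.144). It averaged 170 ± 43.1 units in KO and 71.8 ± 5.45 units in control at 4 h, and 123 ± 55.7 units in KO and 67.6 ± 12.3 units in control at 8 h, without a call. Smad7, which blocks the receptors and is itself a target of the pathway, had 403 and 347 units in KO at 0 h, against 299 and 562 units in control, which overlap. Ski, a corepressor of Smad complexes, averaged 267 ± 29.3 units in KO and 159 ± 31.1 units in control at 0 h. By 4 h Smad7 was at 67.0 ± 13.9 units in KO and 79.7 ± 12.9 units in control, a change of -2.48 in KO (limma adjusted p = 7.78e-05) and -2.36 in control (adjusted p = 0.000169), which with TMM scaling was -1.77 in KO and -1.79 in control and still called.

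**Figure D5:**
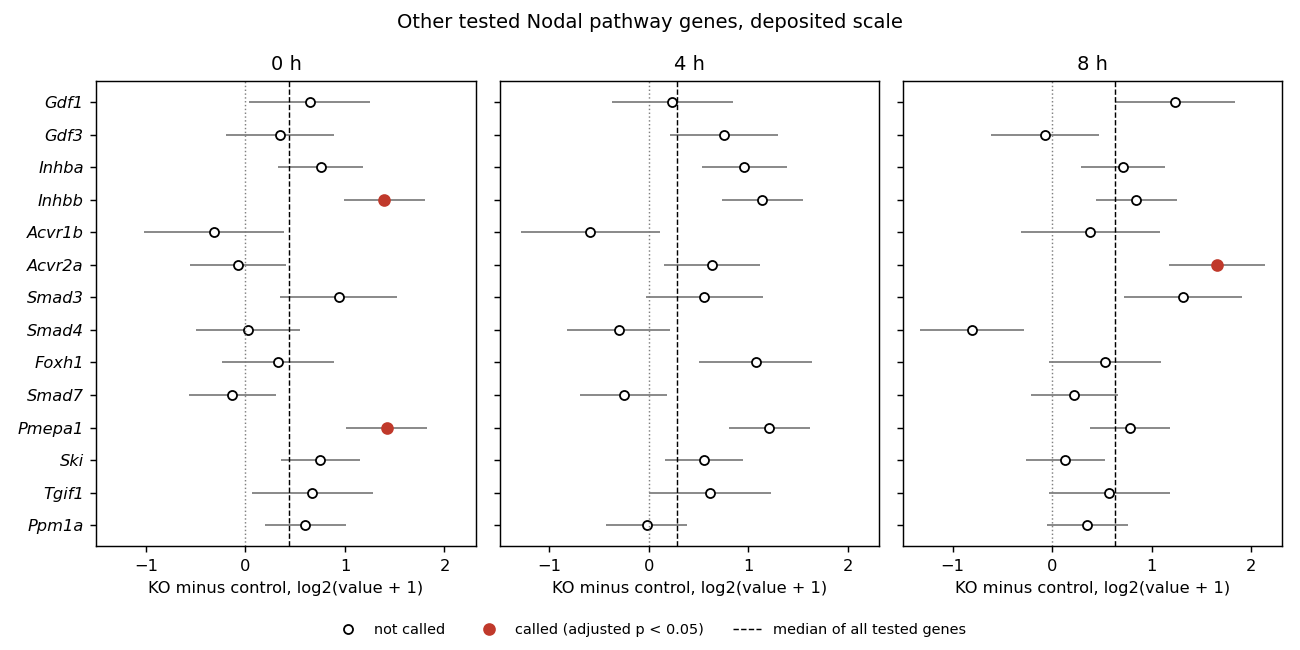
KO minus control difference in log2(value + 1) (horizontal axes) at 0, 4 and 8 h for the 14 tested pathway genes other than the members, on the deposited scale. Points are estimates with SE, filled red where the limma adjusted p is below 0.05, and the dashed line is the median of all tested genes. Inhbb and Pmepa1 are filled at 0 h and Acvr2a at 8 h. None of them is called after TMM scaling.

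Over the change from 0 to 8 h, 9 of the 14 genes were called lower in KO and 10 in control, beside the 40.5% in KO and 53.5% in control of all tested genes given above. The other 18 pathway genes did not reach the minimum. They include the secreted inhibitors Dand5, with a mean of 4.28 units over the 12 libraries, and Fst, with 0.46 units, and the second coreceptor Cfc1, with 0.047 units. The mesendoderm targets Foxa2 and Fgf8 had no reads in any library, and T, the most abundant of these 8 targets, averaged 3.29 units over the 12 libraries. The 8 targets summed to 15.2 and 24.7 units in KO at 0 h, where 1 read was worth 1.68 and 1.76 units, against 0 and 3.95 units in control, and to 5.41 units or less in all libraries at 4 and 8 h. A low value is not a measure of RNA for genes listed with several transcripts, such as Foxa2, Fgf8, Skil, Drap1, Smad2 and the proprotein convertase Furin, since 8.47% of such genes reached a mean of 10 units, against 34.3% of genes with 1 transcript. All 5 members are listed with 1 transcript.

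Some markers of other cell types were higher in KO on the deposited scale, where the median gene was higher as well. The marker lists are given here beside the Lefty2 and pathway differences. The summed level of 14 fibroblast markers ran from 12794 to 16744 units in KO at 0 h, against 5326 to 8754 units in control. It ran from 15852 to 17148 units in KO at 4 h, against 7760 to 9322 units in control, and from 9609 to 12480 units in KO at 8 h, against 6983 to 8615 units in control. On the deposited scale the sums did not overlap at any time, as held for 13.9% of single tested genes with KO above control. They were not taken after TMM scaling. Much of each sum was Col1a1, which was not called and averaged 8236 ± 1666 units in KO and 4094 ± 1456 units in control at 0 h. Of 10 fibroblast markers tested 5 were called higher in KO at 0 h (Thy1, Vim, Acta2, Twist1 and Cdh11), beside 4.23% of all tested genes, and none at 4 h or 8 h. Their median difference was 1.35 at 0 h, 0.99 at 4 h and 0.61 at 8 h, beside 0.44, 0.29 and 0.63 over all tested genes. With TMM scaling 4 were called at 0 h and 2 at 4 h, and the median was 0.92, 0.69 and -0.059, so that it flipped at 8 h. Vim, an intermediate filament of mesenchymal cells, averaged 1561 ± 258 units in KO and 625 ± 204 units in control at 0 h. The fibroblast markers Pdgfrb and Postn had no reads in any library. The limit given above for genes listed with several transcripts holds for markers without reads as well.

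Of 3 neuroectoderm markers tested, 2 were called higher in KO at 0 h, beside 4.23% of all tested genes, and none at 4 h or 8 h. Sox1 averaged 51.6 ± 8.08 units in KO and 2.93 ± 0.42 units in control at 0 h (log2 difference 3.74 ± 0.94, limma adjusted p = 0.0146). Tubb3 averaged 146 ± 26.9 units in KO and 53.1 ± 2.51 units in control (1.43 ± 0.42, limma adjusted p = 0.0413). With TMM scaling neither was called, Sox1 at 3.20 ± 0.82 (limma adjusted p = 0.0541) and Tubb3 at 0.99 ± 0.35 (adjusted p = 0.172). The summed level of the 6 neuroectoderm markers was 272 to 359 units in KO and 88.2 to 162 units in control at 0 h, 226 to 306 units in KO and 119 to 169 units in control at 4 h, and 133 to 193 units in KO and 101 to 112 units in control at 8 h, with Pax6 at 0 reads. These sums did not overlap at any time, as held for 13.9% of single tested genes with KO above control. They were not taken after TMM scaling. The median difference of the 3 tested markers was 1.43 at 0 h, 0.87 at 4 h and 0.63 at 8 h. After TMM scaling that median was 0.99, 0.57 and -0.023. Of 11 naive pluripotency markers tested, 1 was called, Dppa3 at 8 h, beside 4.88% of all tested genes called higher at that time. Dppa3 then had 53.1 ± 22.8 units in KO and 5.15 ± 4.22 units in control (3.27 ± 0.68, limma adjusted p = 0.00187). It was not called with TMM scaling (2.76 ± 0.79, limma adjusted p = 0.0933). Summed, the 16 naive markers ran from 3736 to 4049 units in KO and 2608 to 4635 units in control at 0 h, which overlap. They ran from 1128 to 1278 units in KO and 931 to 1187 units in control at 4 h, which overlap as well. By 8 h the naive sums were 816 to 887 units in KO and 465 to 693 units in control. These 8 h sums did not overlap, as held for 55.3% of single tested genes with KO above control. Neither of 2 primed epiblast markers tested was called, although the 6 on that list summed to 314 and 421 units in KO at 0 h, against 167 and 252 units in control, with Fgf5 and Dnmt3b at 0 reads. KO lay above control without overlap in that sum, as for 37.3% of single tested genes. The 8 primitive endoderm markers summed to 12.6 units or less in every library, with Gata4, Sox17, Dab2, Foxa2 and Hnf4a at 0 reads.

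In bulk RNA, more cells of a type and more RNA per cell cannot be told apart, and the part of these markers in the Lefty2 and pathway differences was not tested. As a percentage of Col1a1, the most abundant fibroblast marker, chosen after its values were seen, Lefty2 was 5.99 and 6.84 in KO at 0 h, against 3.31 and 5.49 in control. At 4 h it was 3.18 and 3.58 in KO, against 2.27 and 2.75 in control, and at 8 h 3.38 and 4.22 in KO, against 1.20 and 1.54 in control. KO lay above control at each time, which describes the contrast that chose Lefty2.

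The genes whose profile was most like that of Lefty2 over the 12 libraries were found by Pearson correlation on TMM-scaled log2(value + 1), among the 2809 genes whose mean reached 50 units. They were Pvrl1 (r = 0.95), a cell adhesion molecule of the nectin family, Mogs (r = 0.94), a glucosidase that trims N-linked glycans, Ptprv (r = 0.93), a receptor-type phosphatase, Tspan31 (r = 0.89), a tetraspanin, and Mip (r = 0.89), a water channel of the lens. All libraries share the genotype and time groups, so these values are a description without a test. The members themselves were at 0.17 for Nodal, -0.08 for Lefty1 and -0.65 for Tdgf1. Since the 5 genes named were picked as the highest of those ranked, a lower r does not set a member apart. Nodal and Lefty1 averaged 33.4 and 30.2 units, below the minimum, so they were correlated apart from the ranking. The r pools time and genotype, and a low r does not show how a member differed between genotypes. Tspan31 had 682 and 875 units in KO at 0 h, against 117 and 255 units in control, and Mogs 330 and 332 units in KO, against 34.2 and 139 units in control. Both genes were picked for likeness to Lefty2, so these differences restate the contrast that chose Lefty2. Tspan31 overlaps Cdk4 on the opposite strand in the annotation, and Pvrl1 (Nectin1), Ptprv and Mip each overlap 1 annotated gene on the opposite strand, so their reads may be shared with those genes.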

How the data were processed

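Total RNA of control and Zcchc8 KO ESCs after 0, 4 and 8 h in Actinomycin D was used (12 libraries, 6 groups of 2, grouped by the labels). The other 47 samples of the series were not analysed here. The deposited table holds a normalised signal: for each RefSeq transcript, the authors scaled the read count by a factor common to the library. Every library's values were whole multiples of 1 read, with a tolerance of 0.001 reads and no exception (100% of values), which allowed reads to be recovered. The build mm9 and the tools DESeq2, HTSeq 0.6.0 and TopHat2 2.1.1 are listed, without role or settings, in the submitters' processing notes. The sources used here do not give the strand setting or the basis of the factors.

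Of 33896 rows 978 repeats were dropped, and 32918 transcripts were summed to 23974 genes. The 6952 genes whose mean reached 10 units were tested with limma 3.58.1 in R 4.3.3 (trend and robust options) on log2(value + 1), which understates changes of low genes. One fit of 6 group means served all comparisons, with two-sided p-values adjusted by Benjamini-Hochberg over all tested genes and calls at an adjusted p below 0.05. The script was tested on simulated data with 200 changed genes. Alternatives were a pseudocount of 5, no filter, TMM scaling, edgeR 4.0.16 and DESeq2 1.42.0 on the recovered reads, the replicate number as a block, the 4 libraries of 1 time alone, and leaving out each library.

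Depth was 465324 to 1364523 reads a library, and reads carry no molecular identifiers, so floors cover counting error only. Named genes were the 5 members, pathway genes called or among the 2 most abundant of their role list, Zcchc8, called markers and the 5 genes most correlated with Lefty2. Others are named as library checks, as listed at 0 reads or after their values were seen. The members and lists were chosen with earlier results of these data known. Sequences came from GENCODE M21 transcripts (GRCm38). Since the authors used mm9, no coordinates are given.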

Additional observations from a re-analysis of the deposited data

How the results depend on the processing

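The choice of scaling changed more than the choice of test: 26 of 42 results kept their direction, call or size with TMM scaling, with edgeR on TMM and with DESeq2, 41 with edgeR on the authors' factors, 40 with a pseudocount of 5, 39 without the filter, and 16 of 18 with the 4 libraries of a time alone. Values with TMM scaling, edgeR on TMM and DESeq2 follow in that order, in log2. Lefty1 at 4 h was -0.17, -0.12 and -0.12, and its KO changes were -1.40, -1.41 and -1.44 to 4 h and -1.13, -1.19 and -1.22 to 8 h. Lefty2 differences were 1.04, 1.05 and 1.05 at 4 h and 1.25, 1.24 and 1.25 at 8 h, with changes of 0.13, 0.11 and 0.085 to 4 h in control, 0.013, 0.021 and -0.0060 to 8 h in KO and -0.043, -0.047 and -0.076 to 8 h in control. Tdgf1 at 8 h was -0.38, -0.33 and -0.33, with changes to 4 h of 0.46, 0.42 and 0.40 in KO and 0.53, 0.52 and 0.49 in control, and to 8 h of 0.41, 0.42 and 0.39 in KO and 0.10, 0.089 and 0.058 in control. Nodal at 0 h was -0.029 with edgeR on TMM and -0.018 with DESeq2, its KO change to 8 h -1.98 with TMM scaling, and its KO minus control difference of the change to 4 h -0.033 with a pseudocount of 5. Without the filter the Lefty2 change to 8 h in KO kept -1.16 and lost its call. Pathway genes called higher at 0 h numbered 1 without the filter and 0 with TMM scaling, both edgeR fits, DESeq2 and the 4 libraries alone. At 4 h they numbered 2 with the 4 libraries alone, and at 8 h 0 with a pseudocount of 5, without the filter, with TMM scaling, edgeR on TMM and DESeq2. Without each library in turn, the differences at 0, 4 and 8 h ran over -0.43 to 0.32, -0.50 to 0.72, 0.85 to 1.10 for Lefty1, 0.89 to 2.35, 1.09 to 1.59, 1.57 to 2.24 for Lefty2, 0.15 to 1.38, 0.20 to 2.00, 1.16 to 1.87 for Nodal and -0.63 to 0.12, -0.76 to -0.14, 0.04 to 0.53 for Tdgf1. Changes to 4 and 8 h ran over -2.71 to -1.49 and -2.43 to -2.10 in KO and -2.64 to -1.89 and -3.67 to -2.92 in control for Lefty1, -0.86 to -0.59 and -1.27 to -1.05 in KO and -1.17 to 0.29 and -2.17 to -0.71 in control for Lefty2, -3.22 to -2.83 and -3.40 to -2.85 in KO and -4.26 to -2.46 and -4.48 to -3.25 in control for Nodal, and -0.61 to 0.13 and -1.13 to -0.39 in KO and -0.36 to 0.26 and -1.54 to -1.06 in control for Tdgf1. Their KO minus control differences ran over -0.45 to 0.78 and 0.65 to 1.41 for Lefty1, -1.01 to 0.45 and -0.45 to 1.01 for Lefty2, -0.56 to 1.23 and 0.13 to 1.36 for Nodal and -0.57 to 0.18 and 0.17 to 0.91 for Tdgf1. Pathway calls ran from 0 to 2 at 0 h, 0 to 1 at 4 h and 0 to 2 at 8 h. Where a scaling turned a value other than Nodal at 0 h, that scaling removes the shift of the median gene by its construction. Nodal at 0 h was 0.33 with TMM scaling in limma, and why it turned with edgeR on TMM and DESeq2 was not tested. For the pseudocount and the filter the cause was not tested.

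Replicate numbers did not pair the libraries: over 15 pairs of groups, deviations of same-numbered libraries correlated at -0.07 to 0.12, with 2 over 0.1. The replicate block left all 42 results as they were, for example 0.77 for Nodal at 0 h and 2 pathway calls at 0 h. Depth limits Nodal and Lefty1 after 0 h, at 3 to 23 reads a library, and Cer1 throughout. It also limits Nodal in control 0 h replicate 2, at 12 reads.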
